A study of Mus musculus with 13 samples.

Results

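The genes described here carry an interferon signal from the cell surface to the STAT proteins, and switch it off again. They are the receptor chains Ifnar1, Ifnar2, Ifngr1 and Ifngr2, the Janus kinases Jak1, Jak2 and Tyk2, the suppressors of cytokine signalling Socs1 and Socs3, and the phosphatase gene Ptpn2. They were taken by symbol from the count table, but the list was drawn up with earlier results of these data known. All 10 were among its 21084 genes, and all 10 passed the filter on low counts, with 147 to 53767 estimated counts in a library. They were followed through 13 bulk RNA sequencing libraries of gamma delta intraepithelial lymphocytes, T cells that live between the epithelial cells of the gut, sorted from wild-type mouse small intestine. All mice received 200 µg of a hamster antibody by intraperitoneal injection, either UC7-13D5, which binds the gamma delta T cell receptor, or Armenian hamster IgG. The labels' protocols place the injections 48 and 24 hours before isolation, while the design text gives one time or the other. All mice then received an intravenous injection 5 hours before isolation, which held 1 µg of interferon alpha (IFNa) or only buffered saline (PBS). This gave 3 libraries with IgG and PBS (IgG-PBS), 4 with IgG and IFNa (IgG-IFNa), 3 with UC7-13D5 and PBS (UC7-PBS) and 3 with UC7-13D5 and IFNa (UC7-IFNa). The age of the mice, and whether a library holds 1 mouse or several, were not given in the sources used here, so p-values measure the spread between these libraries.

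Type I interferons, among them IFNa, bind a receptor made of IFNAR1 and IFNAR2, which carry the kinases TYK2 and JAK1. The kinases phosphorylate STAT proteins, which join IRF9 and switch on interferon-stimulated genes. Interferon gamma, the type II interferon, uses its own receptor of IFNGR1 and IFNGR2 with JAK1 and JAK2. SOCS1 and SOCS3 are made in response to cytokines and block the kinases or mark them for destruction, and the phosphatase encoded by Ptpn2 removes phosphate from JAK1 and STAT proteins. The receptor and kinase genes are transcribed in most cells, whereas Socs1 and Socs3 are usually induced.

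Library totals ran from 19867201 to 26895876 estimated counts. The sum of 12 gamma delta intraepithelial lymphocyte markers lay between 45394 and 78400 normalised CPM (estimated counts scaled to a library size corrected by edgeR's trimmed mean of M values, TMM) in every library, and none of the 12 was at 0 in a group. This sum came largely from Gzma and Gzmb, with means of 24156 and 10664 CPM in IgG-PBS. There the receptor constant genes Trdc and Trgc1 had means of 181 and 1412 CPM, beside 201 for Trac, 692 for Trbc1 and 717 for Trbc2. The sum therefore does not measure the share of gamma delta cells. UC7-IFNa library 2 stood apart. It had the lowest total, a scaling factor of 0.867 and 18S ribosomal RNA at 1.14% of counts against at most 0.333% elsewhere, and its log2 CPM correlated with those of its group mates at 0.940 and 0.943, against 0.973 to 0.984 for other pairs of group mates. The main values that it touches are given with and without it. A value given once, with no fit named, includes it. Transcripts linked to sex also differed between groups. Xist, which is expressed in female cells, ran from 265 to 345 CPM with IgG and PBS, here without TMM scaling, but no UC7-13D5 library exceeded 1.08 CPM. The summed Y-linked transcripts (4 genes) did not exceed 0.310 CPM with IgG and PBS and reached 132 CPM or more in each UC7-13D5 library. IgG-IFNa libraries 3 and 4 held 210.0 and 320.3 CPM of Y-linked transcripts and libraries 1 and 2 at most 2.15 CPM. Xist was 204, 215, 68.3 and 23.4 CPM in IgG-IFNa libraries 1 to 4, so libraries 3 and 4 held both kinds of transcript. Effects of UC7-13D5 and of the sex of the mice cannot be told apart in these libraries. The comparison of IFNa with PBS after IgG, which also enters the average over antibodies, is unbalanced in the same transcripts.

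The promoters of the 3 members whose expression moved with IFNa in at least 1 fit are shown first, as the 250 bases before the RefSeq start site on the gene's strand (build GRCm38.p6). The stretches are chr16:10785537-10785786 on the minus strand for Socs1, chr16:91484965-91485214 on the plus strand for Ifnar1 and chr10:19591699-19591948 on the plus strand for Ifngr1. Capitals mark matches to the pair of GAAA repeats that interferon regulatory factors recognise.
Socs1: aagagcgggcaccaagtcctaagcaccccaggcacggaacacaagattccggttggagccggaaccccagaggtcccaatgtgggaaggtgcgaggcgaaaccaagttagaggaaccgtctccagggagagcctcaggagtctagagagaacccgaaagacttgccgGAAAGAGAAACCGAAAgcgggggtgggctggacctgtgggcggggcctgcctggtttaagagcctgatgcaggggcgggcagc
Ifnar1: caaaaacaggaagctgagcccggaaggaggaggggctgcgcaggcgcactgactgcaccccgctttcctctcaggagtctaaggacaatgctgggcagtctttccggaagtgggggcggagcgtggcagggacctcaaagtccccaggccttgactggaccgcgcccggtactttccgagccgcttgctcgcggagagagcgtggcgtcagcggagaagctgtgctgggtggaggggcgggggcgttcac
Ifngr1: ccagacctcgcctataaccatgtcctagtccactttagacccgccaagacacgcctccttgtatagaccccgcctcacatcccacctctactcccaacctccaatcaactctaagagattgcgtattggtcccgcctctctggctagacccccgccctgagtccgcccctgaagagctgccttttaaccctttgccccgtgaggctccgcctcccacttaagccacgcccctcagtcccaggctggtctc
The searched letters were GAAANNGAAA and TTCNNNGAA, the spacing bound by STAT dimers, on both strands of the promoters of 9 of the 10 members. The promoter of the remaining member was not searched. In Socs1 the run in capitals holds 2 overlapping matches, GAAAGAGAAA starting 83 bases and GAAACCGAAA starting 77 bases before the start site. GAAANNGAAA occurred in 2.98% of 32851 promoters of the same length. TTCNNNGAA occurred in 7.02% of them, and among the members in Socs3, 154 bases before the start, and Ifnar2, 214 bases before it. The windows of Ifnar1 and Ifngr1 held neither set of letters. A match describes the sequence and does not show that a factor binds.

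Levels were compared between genes only per exon length, as CPM per kb of the merged exons of GENCODE M21. In IgG-PBS, Ifngr1 was the most abundant member at 431 ± 55.2 CPM per kb (SD, n = 3), followed by Jak1 at 80.5 ± 3.17. Ptpn2 came next at 35.2 ± 2.26 and Ifnar2 at 25.6 ± 0.586 CPM per kb. Ifnar1 (19.1 ± 1.78), Tyk2 (18.3 ± 3.59), Jak2 (17 ± 1.14), Socs1 (15.8 ± 2.26) and Socs3 (15.2 ± 2.26) followed, and neighbours among these 5 differed by less than the larger of their SDs. Ifngr2, which encodes the second chain of the interferon gamma receptor, was last at 1.99 ± 0.304 CPM per kb. The ratio of estimated counts of Ifngr1 to Ifngr2 was 139 to 280 across the 13 libraries. In bulk samples, fewer expressing cells and less RNA per cell cannot be told apart.

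**Figure D1:**
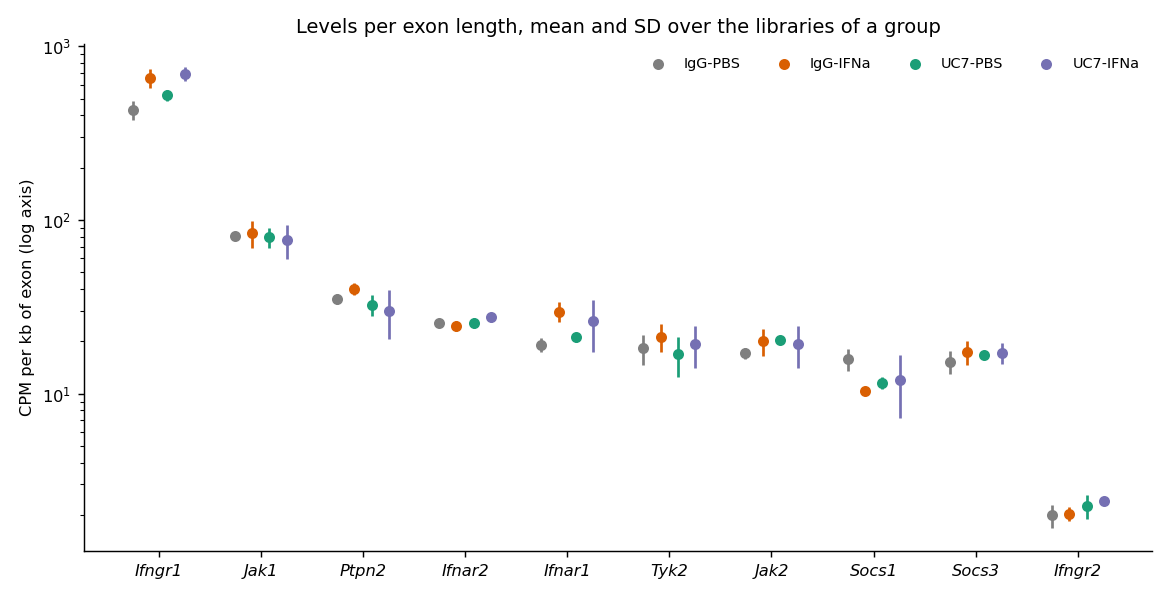
CPM per kb of exon (log axis) for each gene in the 4 groups; points are means and lines the SD over 3 or 4 libraries. Ifngr1 lies highest (431 in IgG-PBS) and Ifngr2 lowest (1.99).

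Ifnar1 encodes the signalling chain of the type I interferon receptor that holds TYK2 (ENSMUSG00000022967, mm39 chromosome 16, 91282126 to 91304330). Its scaled level was 119, 119 and 101 CPM in IgG-PBS libraries 1 to 3, and 153, 187, 161 and 203 CPM in IgG-IFNa libraries 1 to 4. It was 126, 118 and 133 CPM in UC7-PBS and 174, 96.5 and 194 CPM in UC7-IFNa. Every IgG-IFNa library was above every IgG-PBS library, and 2 of 3 UC7-IFNa libraries were above every UC7-PBS library, while UC7-IFNa library 2 was the lowest of all 13. After IgG the log2 fold change was 0.64 (SE 0.20) with an edgeR adjusted p of 0.198. Without UC7-IFNa library 2, a member of neither group that enters the shared spread, the same 0.64 had an SE of 0.12 and passed at an adjusted p of 0.0087. After UC7-13D5 the value was 0.30 (SE 0.21, edgeR adjusted p = 0.777), and 0.54 (SE 0.14, adjusted p = 0.111) without library 2. Averaged over antibodies, the log2 fold change was 0.47 (SE 0.14, edgeR adjusted p = 0.118) over all libraries. Without library 2, Ifnar1 rose by 0.59 (SE 0.09, adjusted p = 0.00117), or 1.51-fold. It also passed after IgG when only the 7 IgG libraries were fitted (0.63, edgeR adjusted p = 0.0223). Without IgG-IFNa libraries 3 and 4 the value after IgG was 0.59 (adjusted p = 0.758).

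Ifnar2 encodes the chain that binds IFNa most tightly and holds JAK1 (ENSMUSG00000022971, chromosome 16, 91169671 to 91202478), and its gene lies upstream of Ifnar1 on the same strand. It stood at 83.2, 85.7 and 87.1 CPM in IgG-PBS, and at 74.6, 88.6, 80.8 and 82.9 CPM in IgG-IFNa. It was 85.1, 90.7 and 79.5 CPM in UC7-PBS and 93.9, 95.1 and 85.6 CPM in UC7-IFNa. The groups overlapped in each comparison, and UC7-IFNa library 2 lay with its group mates for this gene. The averaged log2 fold change was 0.022, with a 95% interval from -0.16 to 0.21 (edgeR adjusted p = 0.948). The chains therefore did not keep 1 ratio: Ifnar1 counts were 1.16 to 1.43 times those of Ifnar2 in IgG-PBS and 1.99 to 2.45 times in IgG-IFNa. The ratio was 1.30 to 1.68 in UC7-PBS, and 1.85, 1.01 and 2.27 in UC7-IFNa libraries 1 to 3. These ratios are given as a description, without a test.

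Ifngr1 encodes the ligand-binding chain of the interferon gamma receptor (ENSMUSG00000020009, chromosome 10, 19467697 to 19485978). It stood at 1112, 1407 and 1165 CPM in IgG-PBS and at 1536, 1914, 1995 and 2058 CPM in IgG-IFNa. In UC7-PBS it was 1489, 1589 and 1387 CPM, and in UC7-IFNa 1892, 1869 and 2190.2 CPM. Within each antibody, all IFNa libraries were above all PBS libraries, UC7-IFNa library 2 included. Averaged over antibodies, Ifngr1 rose by 0.51 on the log2 scale (SE 0.11, edgeR adjusted p = 0.017), or 1.43-fold, and it was the 1 member that passed with all libraries. Without UC7-IFNa library 2 the rise was 0.53 (SE 0.10, adjusted p = 0.00353). After IgG the value was 0.61 (SE 0.14, edgeR adjusted p = 0.0653), passing at an adjusted p of 0.0136 without library 2 and also when only the 7 IgG libraries were fitted. After UC7-13D5 it was 0.41 (SE 0.15, edgeR adjusted p = 0.54) and 0.45 (adjusted p = 0.223) without library 2. The averaged call was lost on leaving out IgG-PBS library 1 (0.48) or 3 (0.50), UC7-PBS library 1 (0.51) or 3 (0.49), or UC7-IFNa library 3 (0.47), with adjusted p of 0.0554 to 0.0618. It was also lost on leaving out IgG-IFNa libraries 3 and 4, which carry Y-linked transcripts (0.45, adjusted p = 0.121).

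Ifngr2 (ENSMUSG00000022965, chromosome 16, 91343960 to 91362512) lies beyond Ifnar1, so that 3 of the 4 receptor genes share a stretch of chromosome 16. It stood at 6.18 to 8.31 CPM in IgG-PBS, 7.23 to 8.70 in IgG-IFNa, 7.32 to 9.97 in UC7-PBS and 8.54 to 9.43 in UC7-IFNa. With 147 to 263 estimated counts a library, it was the least deeply counted member. The groups overlapped, and the averaged log2 fold change was 0.064 with a 95% interval from -0.23 to 0.36 (edgeR adjusted p = 0.895). The averaged value of Ifngr1, 0.51, lies outside that interval, but its own 95% interval, from 0.29 to 0.74, overlaps it. The difference between the 2 genes was not tested.

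**Figure D2:**
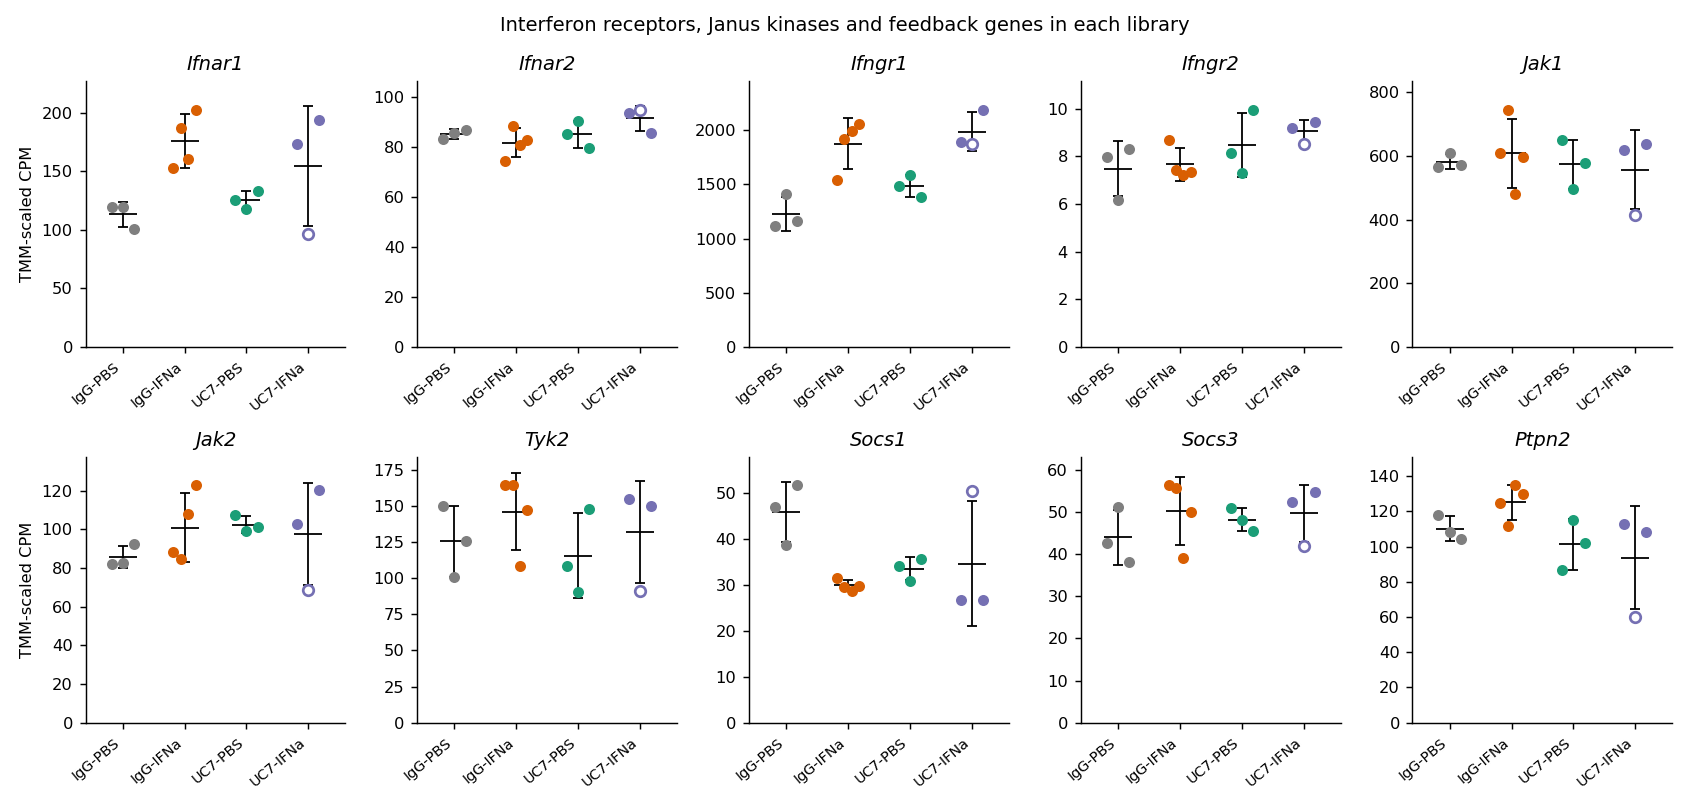
TMM-scaled CPM of each gene in each library (axes start at 0 and differ between panels); points are libraries, the open point is UC7-IFNa library 2, and bars are mean ± SD. Ifnar1 and Ifngr1 are higher and Socs1 lower in every IgG-IFNa library than in every IgG-PBS library.

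Jak1, the kinase shared by type I and type II receptors, was the most abundant of the kinases (ENSMUSG00000028530, chromosome 4, 101009564 to 101122480). It ran from 565 to 608 CPM in IgG-PBS, 480.1 to 745 in IgG-IFNa, 495 to 649 in UC7-PBS and 413 to 637 in UC7-IFNa, so all groups overlapped. The averaged log2 fold change was 0.0079 (95% interval -0.27 to 0.28, edgeR adjusted p = 0.989), and 0.092 (adjusted p = 0.668) without UC7-IFNa library 2. Tyk2, the partner of IFNAR1 (ENSMUSG00000032175, chromosome 9, 21015364 to 21042540), varied within groups as much as between them. It ran from 101 to 150.0 CPM in IgG-PBS, 108 to 164 in IgG-IFNa, 90.2 to 148 in UC7-PBS and 91.1 to 155 in UC7-IFNa. Its averaged log2 fold change was 0.21 (95% interval -0.14 to 0.55, edgeR adjusted p = 0.636), and 0.31 (adjusted p = 0.211) without UC7-IFNa library 2. Jak2, which serves the interferon gamma receptor (ENSMUSG00000024789, chromosome 19, 29229228 to 29290481), stood at 82.2, 82.6 and 92.3 CPM in IgG-PBS and at 107, 99.0 and 101 CPM in UC7-PBS. These groups did not overlap, but the log2 fold change of 0.26 (SE 0.19) had an edgeR adjusted p of 1. In IgG-IFNa it was 88.3, 84.4, 108 and 123 CPM, and libraries 3 and 4, which carry Y-linked transcripts, were the higher ones. In UC7-IFNa it was 103, 68.7 and 121 CPM, with library 2 the lowest of all. For IFNa averaged over antibodies the Jak2 value was 0.081 (95% interval -0.20 to 0.36, edgeR adjusted p = 0.85). Without UC7-IFNa library 2 that value was 0.18 (adjusted p = 0.329). None of the 3 kinases passed in any of the 6 contrasts.

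Socs1, the inhibitor that binds JAK1, JAK2 and TYK2 (ENSMUSG00000038037, chromosome 16, 10600104 to 10603401), is the gene whose promoter holds the GAAA pair shown above. It stood at 47.0, 38.8 and 51.8 CPM in IgG-PBS and at 31.6, 29.5, 28.8 and 29.8 CPM in IgG-IFNa. In UC7-PBS it was 34.3, 30.8 and 35.8 CPM, and in UC7-IFNa 26.8, 50.5 and 26.8 CPM. Every IgG-IFNa library lay below every IgG-PBS library, and UC7-IFNa libraries 1 and 3 were the lowest of all, while library 2 was near the top of the IgG-PBS range. After IgG the log2 fold change was -0.62 (SE 0.20, edgeR adjusted p = 0.217). Without UC7-IFNa library 2 the same -0.62 had an SE of 0.12 and passed at an adjusted p of 0.0115, so Socs1 fell to 0.653 of its IgG-PBS level in that fit, as it did when only the 7 IgG libraries were fitted. Without IgG-IFNa libraries 3 and 4 it was -0.58 (adjusted p = 0.78). After UC7-13D5 the value was 0.043 (SE 0.21, edgeR adjusted p = 0.983) over all libraries and -0.34 (SE 0.15, adjusted p = 0.387) without library 2. Averaged over antibodies it was -0.29 (SE 0.15, edgeR adjusted p = 0.388), and -0.48 (SE 0.10, adjusted p = 0.00778) without library 2. The direction after UC7-13D5 turned on leaving out that 1 library, and it also turned on the authors' normalized counts with all libraries kept (-0.026). In no fit, over all settings and the 6 contrasts, was Socs1 called higher.

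Socs3, the inhibitor best known for blocking the interleukin 6 family receptors (ENSMUSG00000053113, chromosome 11, 117856905 to 117860874), overlapped between all groups. It ran from 38.2 to 51.1 CPM in IgG-PBS, 39.1 to 56.4 in IgG-IFNa, 45.5 to 51.1 in UC7-PBS and 42.1 to 54.7 in UC7-IFNa. The averaged log2 fold change was 0.12 (95% interval -0.13 to 0.37, edgeR adjusted p = 0.731). As a description, counts of Socs1 were 0.759 to 1.35 times those of Socs3 in IgG-PBS, 0.531 to 0.737 times in IgG-IFNa and 0.641 to 0.786 times in UC7-PBS. In UC7-IFNa the ratios were 0.511, 1.2 and 0.490. Ptpn2 (ENSMUSG00000024539, chromosome 18, 67798581 to 67857666) stood at 104 to 118 CPM in IgG-PBS, 112 to 135 in IgG-IFNa, 86.5 to 115 in UC7-PBS and 60.2 to 113 in UC7-IFNa, with UC7-IFNa library 2 the lowest of all. Its averaged value was 0.036 (95% interval -0.25 to 0.33, edgeR adjusted p = 0.945), and 0.15 (adjusted p = 0.349) without that library. Between UC7-13D5 and IgG with IFNa, Ptpn2 had -0.42 (SE 0.19, edgeR adjusted p = 0.671), and -0.19 (adjusted p = 0.942) without library 2.

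Over the 10 members, edgeR called 0 after IgG, where it called 0.827% of the 15835 genes tested, and 0 after UC7-13D5, where it called 0.360%. At an unadjusted p under 0.05 there were 3 members after IgG, beside 10.9% of genes, and 1 after UC7-13D5, beside 7.59%, which is near 1 in 10. DESeq2 called 1 member after IgG and 0 after UC7-13D5, beside 2.73% and 0.876% of the genes to which it gave an adjusted p. Averaged over antibodies, 1 member of 10 was called, beside 1.99% of all genes, and DESeq2 called 2 (Ifngr1 and Ifnar1) beside 5.09%. Without UC7-IFNa library 2, edgeR called 3 members after IgG (Ifnar1 and Ifngr1 higher, Socs1 lower) beside 2.65% of genes, 0 after UC7-13D5 beside 0.678%, and the same 3 averaged over antibodies beside 5.75%. In that fit 3 members had an unadjusted p under 0.05 after UC7-13D5, beside 12.0% of genes, and DESeq2 without that library called 1, Ifnar1, beside 2.29%. The groups did not overlap for 3 members after IgG, beside 14.0% of genes, and for 1 (Ifngr1) after UC7-13D5, beside 12.0%. Without library 2 this was so for 5 members after UC7-13D5 (Ifnar1, Ifngr1, Tyk2 and Socs3 higher, Socs1 lower), but with 3 libraries against 2 it was so for 35.3% of all genes. The median log2 fold change of the members was 0.19 after IgG and 0.069 after UC7-13D5, against -0.012 and 0.022 over all genes tested.

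**Figure D3:**
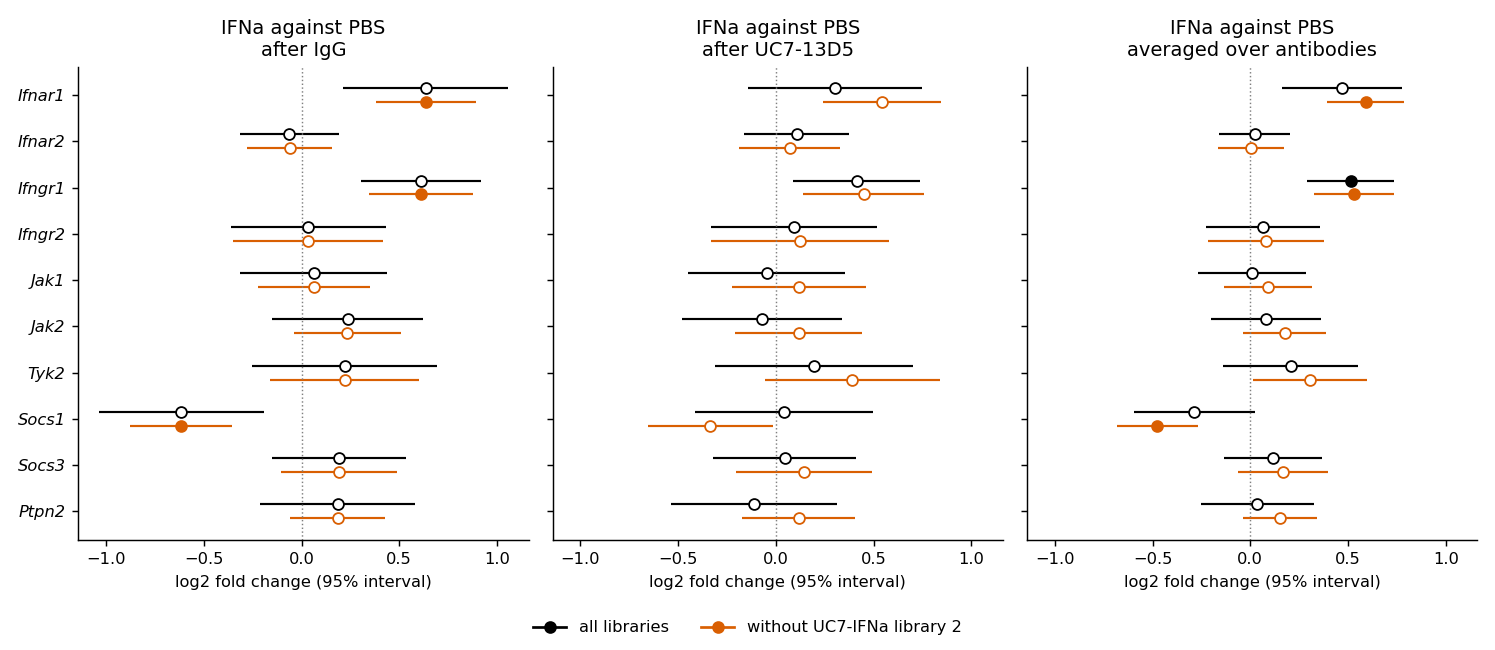
Log2 fold changes of the 10 genes for IFNa against PBS after IgG, after UC7-13D5 and averaged; lines are 95% intervals, black with all libraries and orange without UC7-IFNa library 2, and filled points passed at an edgeR adjusted p under 0.05. With all libraries only Ifngr1 is filled, in the averaged comparison (0.51).

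The antibody alone left the members without a call. Between UC7-13D5 and IgG with PBS edgeR called 0 members and 0.00632% of genes, DESeq2 called 0 members and 0.352% of genes. At an unadjusted p under 0.05 edgeR had 0 members beside 5.00% of genes, and 1 (Socs1) beside 7.40% without UC7-IFNa library 2. Of the members, 2 had groups that did not overlap (Jak2 higher, Socs1 lower with UC7-13D5), beside 12.4% of genes. For Socs1 the log2 fold change was -0.45 (SE 0.21, edgeR adjusted p = 1), and without UC7-IFNa library 2 it was again -0.45 (SE 0.13, adjusted p = 0.29). With IFNa, edgeR called 0 members beside 0.0758% of genes, 1 member (Ptpn2) had an unadjusted p under 0.05 beside 7.19%, and DESeq2 called 0 beside 0.621%. The difference between the IFNa responses after the 2 antibodies, the interaction, was called for 0 members and 0% of genes, with 1 member at an unadjusted p under 0.05 beside 3.17% of genes, and 0 called by DESeq2 beside 0.00950%. That member was Socs1, at 0.66 (SE 0.29, edgeR adjusted p = 1), and 0.28 (SE 0.19) without library 2. For Ifnar1 the interaction was -0.33 (95% interval -0.94 to 0.28) and for Ifngr1 -0.20 (95% interval -0.64 to 0.25, edgeR adjusted p = 1 for both). Each of these intervals, over all libraries, includes responses of equal size and also differences as large as the responses themselves. Without library 2 the Ifnar1 interaction was -0.093 (95% interval -0.49 to 0.30), beside responses of 0.64 after IgG and 0.54 after UC7-13D5. For Ifngr1 it was -0.16 (95% interval -0.57 to 0.25), beside 0.61 and 0.45. The comparisons of IFNa after UC7-13D5 and of UC7-13D5 with PBS share the UC7-PBS libraries, and those after IgG and with PBS share the IgG-PBS libraries.

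Other genes of the pathway were counted from lists. Of 21 interferon ligand genes, 2 were in the table and 1 was tested, Ifng, the gene for interferon gamma. It fell by 1.08 on the log2 scale averaged over antibodies (SE 0.17, edgeR adjusted p = 0.00344), with 72.9 ± 9.63 CPM (SD, n = 3) in IgG-PBS and 29.2 ± 6.97 (n = 4) in IgG-IFNa, and with 45.0 ± 13.5 in UC7-PBS and 25.2 ± 7.75 in UC7-IFNa (n = 3 each). Averaged over antibodies, the ligand gene was thus lower with IFNa, while the gene of its binding chain, Ifngr1, was higher. After UC7-13D5 alone neither was called by edgeR. Ifng had -0.84 there and was called in 3 of 23 alternatives, and -1.32 after IgG, where it was called. The type III receptor chain Il10rb had -0.24 (SE 0.08, edgeR adjusted p = 0.171), and its partner Ifnlr1 was below the filter.

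Of the 7 STAT and IRF9 genes reported here, 2 rose averaged over antibodies and 0 fell, beside 1.99% of all genes called. Their median was 0.40 against 0.0053 over all genes. Irf9, the DNA-binding partner of STAT2, rose by 1.35 (SE 0.11, edgeR adjusted p = 1.93e-06) and Stat3 by 0.73 (SE 0.13, adjusted p = 0.00685). Stat2 had 0.66 (edgeR adjusted p = 0.0618) and rose by 0.80 (adjusted p = 0.000312) without UC7-IFNa library 2. After IgG the same 2 rose, beside 0.827% of all genes called. After UC7-13D5 Irf9 rose (1.60, SE 0.15, edgeR adjusted p = 3.84e-05), beside 0.360%. Of 12 interferon target genes 9 rose and 0 fell averaged over antibodies, beside 1.99% of all genes called, with a median of 1.73. Ifit3, an antiviral protein gene, rose by 4.11 (SE 0.25) and Irf7, which amplifies interferon responses, by 1.67 (SE 0.12), both by edgeR. In the same averaged comparison the called member, Ifngr1, had 0.51.

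Genes listed as other brakes on the pathway were counted in the same way. Of 12 genes listed as other negative regulators, 2 rose and 0 fell averaged over antibodies, beside 1.99% of all genes called, and their median was 0.16. The list holds Sh2b1, so it is not a count of proven brakes. Usp18, which displaces JAK1 from IFNAR2, rose by 2.74 (SE 0.22, edgeR adjusted p = 1.93e-06), with 2.25 ± 0.733 CPM (SD, n = 3) in IgG-PBS and 10.5 ± 3.06 (n = 4) in IgG-IFNa, and with 1.65 ± 0.278 in UC7-PBS and 15.9 ± 2.60 in UC7-IFNa (n = 3 each). Ptpn1, a phosphatase that acts on JAK2 and TYK2, rose by 0.47 (SE 0.10, edgeR adjusted p = 0.0305), but was called in only 11 of 22 alternatives. Of 6 other SOCS family genes, 0 rose and 1 fell, beside the same 1.99% of all genes, and their median was -0.10. This was Cish, a feedback inhibitor of STAT5 signals, at -0.70 (SE 0.13, edgeR adjusted p = 0.00999), called in 21 of 22 alternatives. Cish fell by 0.99 after IgG (adjusted p = 0.0174), and after UC7-13D5 it had -0.41 (adjusted p = 0.657). A further list, headed receptor surface control, held 7 genes: Btrc, Prkd2, Hsp90aa1, Rack1, Prmt5, Tsc22d3 and Eif2ak3. Not all of them are particular to receptors. Of the 7, edgeR called 0 averaged over antibodies, 2 had an unadjusted p under 0.05 beside 14.8% of all genes, and DESeq2 called 0.

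Receptors of other cytokines that use the same kinases moved in both directions. Of 13 genes tested, the kinase gene Jak3 among them, 2 rose and 1 fell averaged over antibodies, beside 1.99% of all genes called. Il21r, the interleukin 21 receptor, rose by 0.58 (SE 0.12, edgeR adjusted p = 0.016) and Il2rb, the chain shared by interleukins 2 and 15, by 0.53 (SE 0.13, adjusted p = 0.0412). The call of Il2rb held in 11 of 22 alternatives. Il7r, the interleukin 7 receptor, fell by 1.26 (SE 0.20, edgeR adjusted p = 0.00342), and this averaged call held in 22 of 22. After UC7-13D5 alone Il7r had -1.07 and was not called, with a call in 1 of 23 alternatives. Jak3, the lymphocyte Janus kinase, had 0.16 (SE 0.12, adjusted p = 0.59).

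**Figure D4:**
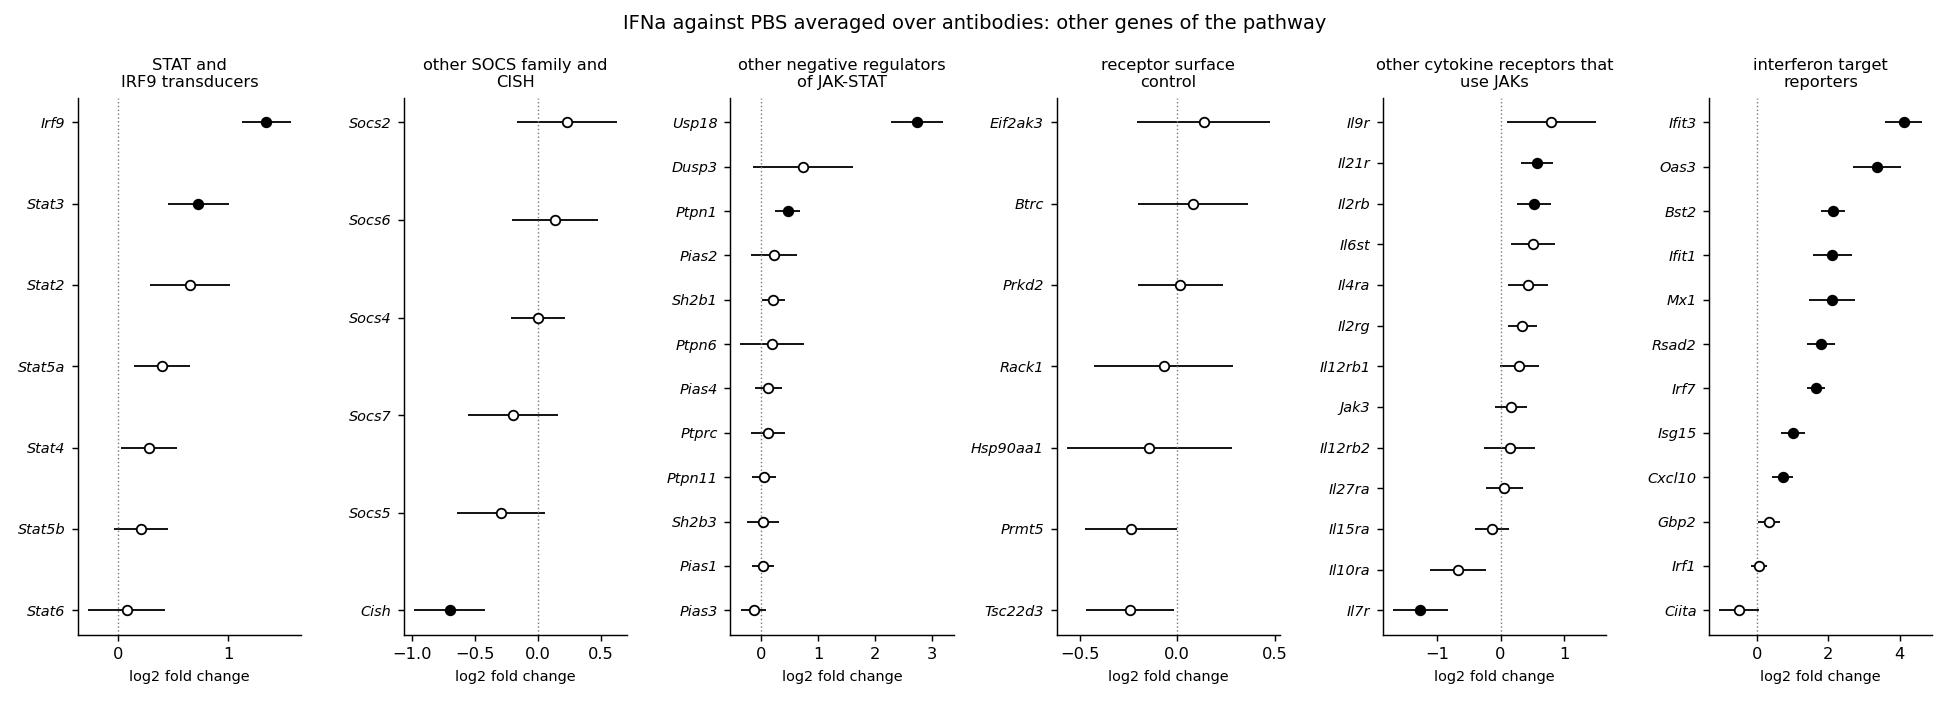
Log2 fold changes of IFNa against PBS averaged over antibodies for other genes of the pathway, by list (axes differ between panels); lines are 95% intervals and filled points passed at an edgeR adjusted p under 0.05. Usp18 (2.74), Irf9 (1.35) and Ifit3 (4.11) lie to the right, and Cish (-0.70) and Il7r (-1.26) to the left.

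Other measures moved with these results. A list of 10 cell isolation and immediate early genes, added after the data were seen, summed to 10976 to 13991 CPM in IgG-PBS, 6369 to 9476 in IgG-IFNa, 6613 to 8596 in UC7-PBS and 5806 to 10344 in UC7-IFNa, where library 2 was the highest. After IgG, Fos fell by 1.02 (SE 0.14) and Jun by 1.47 (SE 0.26), both by edgeR. The 4 libraries with the highest sums, the 3 of IgG-PBS and UC7-IFNa library 2, were also the 4 with the highest Socs1 levels. The next sum, 9476 CPM in IgG-IFNa library 2, stood beside 29.5 CPM of Socs1. Genes of the list did not all move with its sum. In UC7-IFNa library 2 Fos stood at 579 CPM, below its IgG-PBS range (1369 to 1727 CPM). Jun stood at 602 CPM there, also below its IgG-PBS range (1381 to 1709 CPM). Junb stood at 4617 CPM, above its range (3877 to 4227 CPM), and Hspa1a (984 CPM) and Hspa1b (1494 CPM) lay within theirs. The part of these genes in the Socs1 and Ifngr1 results was not tested. Markers of secretory epithelium, 13 genes, summed to 85.6 to 557 CPM in IgG-PBS, 604 to 1236 in IgG-IFNa, 860 to 1984 in UC7-PBS and 372 to 1280 in UC7-IFNa, with none at 0 in a group. Of these 13, Zg16 and Fcgbp rose after IgG, and their part in the member results was not tested. Absorptive enterocyte markers, 15 genes, summed to 155 to 318 CPM over all libraries, and alpha beta T cell markers, 8 genes, to 1516 to 2731 CPM. B and plasma cell markers, 7 of 9 in the table, summed to 436 to 1066 CPM, and innate lymphoid markers, 7 of 8, to 145 to 309 CPM. Myeloid and dendritic markers, 13 of 15, summed to at most 61.2 CPM, and stroma and endothelium markers, 6 of 10, to at most 35.4 CPM. The highest B cell, alpha beta T cell, enterocyte, myeloid and gamma delta sums were all those of UC7-IFNa library 2. As a share of counts, enterocyte markers were highest in UC7-PBS library 3, at 0.0286% against 0.0275% in UC7-IFNa library 2. Myeloid markers were highest by that measure in IgG-IFNa library 1, at 0.00588% against 0.00530%.

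**Figure D5:**
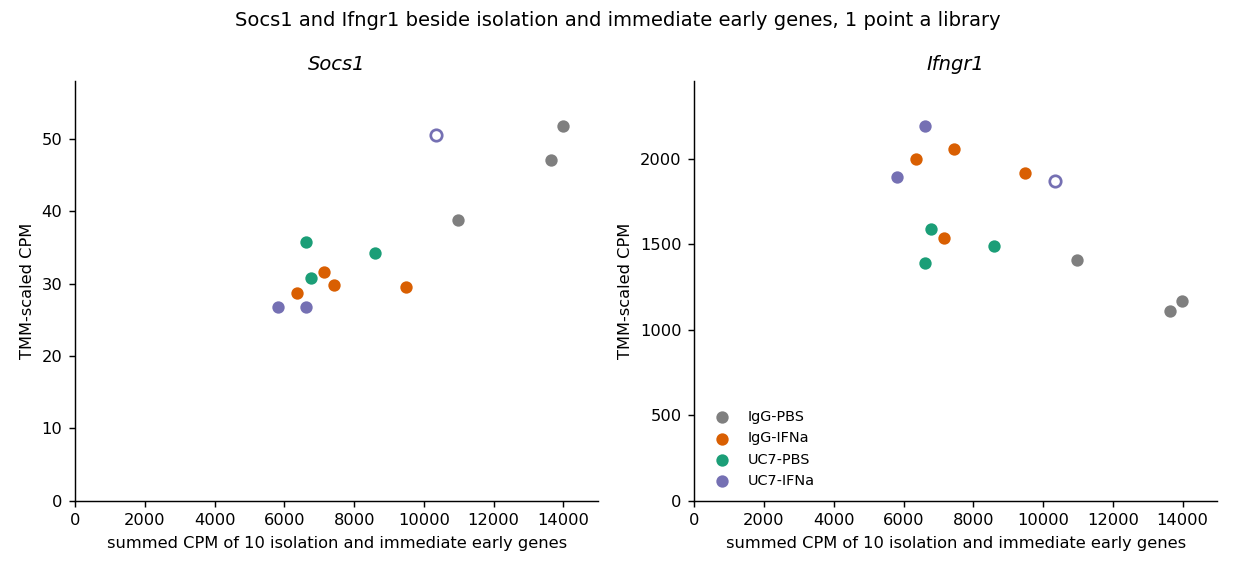
Socs1 and Ifngr1 (TMM-scaled CPM) against the summed CPM of 10 isolation and immediate early genes, 1 point a library, coloured by group with UC7-IFNa library 2 open. The 3 IgG-PBS libraries lie at 10976 to 13991 on the horizontal axis, where Socs1 is 38.8 to 51.8 CPM.

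Patterns over libraries were compared by Pearson's r of log2 CPM, as a description over 13 libraries that share groups and processing. Ifnar1 and Ifngr1 had an r of 0.69, and 0.89 without UC7-IFNa library 2. Ifngr1 and Socs1 ran opposite, at -0.70 and -0.93. Ifnar1 and Ifnar2 had -0.24 and -0.025. The genes whose pattern was most like Ifnar1 were Osbpl9 (r = 0.98), Rgs9 (0.98) and Rbbp5 (0.97), and those most like Ifngr1 were Got1 (0.97), Rnf125 (0.97) and Gna13 (0.95). For Socs1 they were Prpsap2 (0.93), Pdlim2 (0.93) and Rrp9 (0.92). Without library 2, over 12 libraries, the first for Socs1 was Ier5 (0.96), an immediate early response gene, and the next Zfp36 (0.95). Over all 13 libraries the closest gene to Ifnar2 was Zeb2 (0.85), to Ifngr2 St3gal2 (0.90), to Jak1 Nckap1l (0.97) and to Jak2 Rnf8 (0.88). It was Recql5 for Tyk2 (0.97), Ranbp6 for Socs3 (0.90) and Ofd1 for Ptpn2 (0.96). Without library 2 the closest stayed St3gal2 for Ifngr2 and Recql5 for Tyk2. It became Abraxas2 for Ifnar2 (0.82), Ikbkg for Jak1 (0.96), Pgm2l1 for Jak2 (0.90), Stk38 for Socs3 (0.92) and Rpain for Ptpn2 (0.96). Each of these is the highest r found among 8683 ranked genes.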

How the data were processed

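Per the labels, SMART-Seq HT libraries were made from sorted-cell RNA. Per the submitters' processing notes, STAR 2.7.8a, Partek, DESeq2 and build mm39 were used, with no step named for each. The authors deposited estimated counts per gene for 21084 genes, of which 38% of values were not whole, and a signal table of normalized counts for 11281 genes, which the deposited columns show to be the first divided by 1 factor per library, and which served only as an alternative. Estimated counts were rounded and fitted with edgeR 4.0.16 (R 4.3.3): filterByExpr at a minimum count of 10 (15835 genes), TMM scaling, 1 coefficient per group, robust quasi-likelihood F tests, two-sided, Benjamini-Hochberg adjustment over all genes tested, threshold 0.05. The SE is the log2 fold change over the square root of F, and 95% intervals use 15.43 total degrees of freedom (16.58 to 16.88 for the members without UC7-IFNa library 2). DESeq2 1.42.0 and limma 3.58.1 (log2 of the normalized counts plus 1 or 0.1) were alternatives, as were other samples and filters. Groups were taken from the labels. The code was tested on simulated data. The members, lists and tests were chosen with earlier results of these data known. The named genes are the 10 members, the called genes of each pathway list (all where 6 or fewer, otherwise the 3 smallest p), pathway genes chosen by symbol and, for likeness, the 3 genes with the highest r among those whose mean log2 CPM reached 3. A result of the pathway lists is not reported here. Isolation genes and markers of sex were added after the data were seen. Positions come from the deposited table (mm39). Promoters come from RefSeq (GRCm38.p6), and coordinates were not converted. Exon lengths come from GENCODE M21.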

Additional observations from a re-analysis of the deposited data

Results flagged for a closer look

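Ifngr2 in the IgG-IFNa group had 1 library apart from the other 3, on low counts (220 against 200, 183 and 192). Library 1 stood at 8.70 CPM, and libraries 2 to 4 at 7.42, 7.23 and 7.35 CPM. The gap was 0.868 of the group's whole range, above Dixon's 95% critical value for 4 samples. Chance flags about 1 in 20 such groups, and 10 were examined, 1 per member in IgG-IFNa, the only group of 4 libraries. Groups of 3 libraries, UC7-IFNa among them, were not examined in this way. Ifngr2 was the least deeply counted member, and library 1 lay above the IgG-PBS libraries (at most 8.31 CPM) and within the UC7-PBS range (7.32 to 9.97 CPM).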

How the results depend on the processing

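Member calls depended on which libraries and tool were used. After IgG, where 0 members were called, DESeq2 called 1, a fit of the IgG groups alone 3, the authors' normalized counts 1 with a pseudocount of 1 and 1 with 0.1, and single omissions 0 to 3 (3 without UC7-IFNa library 2, 1 without IgG-IFNa library 1). After UC7-13D5 single omissions and all other planned settings called 0. Averaged over antibodies, where 1 was called, DESeq2 called 2, the replicate block 0, leaving out IgG-IFNa libraries 3 and 4 (Y-linked transcripts) 0, and single omissions 0 to 3. The single omissions that gave 0 were IgG-PBS 1 and 3, UC7-PBS 1 and 3, and UC7-IFNa 3, and the one that gave 3 was UC7-IFNa 2. Of settings added after seeing the data, leaving out UC7-IFNa library 2 and those 2 IgG-IFNa libraries gave 1 after IgG and 3 averaged, and DESeq2 without UC7-IFNa library 2 gave 3 after IgG, 1 after UC7-13D5 and 3 averaged. The causes were not tested. No setting called a member in the 2 antibody comparisons or the interaction.

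Some uncalled values changed sign. Socs1 after UC7-13D5 was -0.026 on the authors' normalized counts with either pseudocount, -0.33 with the 3 libraries left out, -0.33 by DESeq2 without UC7-IFNa library 2, and -0.34 to 0.20 over single omissions. Averaged over antibodies, Jak1 was -0.014 on the normalized counts and -0.049 to 0.092 over omissions, and Jak2 -0.030 without IgG-IFNa libraries 3 and 4 and -0.0094 to 0.18 over omissions. Ptpn2 was -0.0046 without those libraries and -0.040 to 0.15 over omissions, and Ifnar2 -0.00099 to 0.047 over omissions. Of 1360 values over 60 pairs of member and contrast, 79 changed sign, and 0 of those were called.

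Calls over all genes moved too. They were 131 after IgG (DESeq2 408, IgG groups alone 343, block 27, without IgG-IFNa 3 and 4 21, omissions 24 to 430), 57 after UC7-13D5 (DESeq2 138, UC7-13D5 groups alone 22, block 34, omissions 29 to 110) and 315 averaged (DESeq2 781, block 146, without IgG-IFNa 3 and 4 131, omissions 172 to 933). With the 3 libraries left out they were 148 after UC7-13D5 and 942 averaged. For UC7-13D5 against IgG they were 1 with PBS (DESeq2 64, groups alone 19, omissions 0 to 4) and 12 with IFNa (DESeq2 118, groups alone 0, omissions 0 to 52), and 0 for the interaction (DESeq2 2, omissions 0 to 1). With PBS they were 0 without the filter, 2 on the normalized counts with a pseudocount of 0.1, 5 without IgG-IFNa 3 and 4 and 17 with the 3 libraries left out. With IFNa they were 1 under the block, 2 on the normalized counts and 6 without IgG-IFNa 3 and 4. DESeq2 without UC7-IFNa library 2 called 879 after IgG, 342 after UC7-13D5, 1657 averaged, 147 and 86 between antibodies with PBS and IFNa, and 13 for the interaction.

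Equal replicate numbers did not pair libraries: deviations of same-numbered libraries correlated at -0.21 to 0.13 (18 pairs), those of others at -0.21 to 0.24 (45 pairs). Under the replicate block Ifngr1 averaged 0.49 (edgeR adjusted p = 0.0799). Depth limits Ifngr2, with 147 to 263 estimated counts a library.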
